A study of Mus musculus with 6 samples.

Results

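Secreted and membrane glycoproteins fold in the endoplasmic reticulum (ER) with the help of lectin chaperones and disulfide isomerases, and the genes described here encode 10 of these helpers. They are calnexin (Canx), calmegin (Clgn), calreticulin (Calr), calreticulin 3 (Calr3), the folding sensor Uggt1 and the disulfide isomerases P4hb, Pdia3, Pdia4, Pdia6 and Pdilt. The members were chosen by gene symbol, and all 10 were found among the 55331 genes of the deposited Cuffdiff table. Each of the 10 had a test result, as did 22048 genes in all.

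The group named PTBP1_KO in the labels consisted of 3 libraries from mice of genotype Ptbp1fl/fl; Amh-Cre+/-, in which Cre is driven by the Amh promoter, active in Sertoli cells, the somatic cells that nurse the germ cells. The group named WT consisted of 3 libraries from Ptbp1fl/fl mice, so both groups carried floxed Ptbp1. No group carried Cre without floxed Ptbp1, and effects of the deletion and of the transgene cannot be told apart. All libraries came from polyadenylated RNA of whole testes at 35 days of age, on a strain background given as mixed. The study asked about the role of the RNA-binding protein PTBP1 in Sertoli cell function. Nothing in the labels says that the libraries of a group came from separate animals, so the tests speak for these libraries.

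Levels are given in FPKM, fragments scaled to transcript length and to library size, which can be set side by side between genes. The authors combined the 3 libraries of a group into 1 value, so no value per library and no SD is given. Low FPKM values moved in steps of 1 fragment. From these steps the libraries held about 65100000 to 72000000 fragments in PTBP1_KO and 66400000 to 87000000 fragments in WT. The premise is that a group value is the mean of 3 libraries, each scaled to its own fragments alone. How libraries were scaled is not given, and under another scaling these would be scaled depths. Ptbp1 itself stood at 46.7 FPKM in PTBP1_KO, 0.934 times the WT level (q = 0.999 in the authors' deposited table), a level over all testis cells that does not check a deletion in Sertoli cells. Markers of testis cells were abundant in both groups, with the spermatid gene Tnp1 at 18244 FPKM in PTBP1_KO and 19773 FPKM in WT.

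In the calnexin cycle, a new glycoprotein with a trimmed, monoglucosylated glycan binds the membrane lectin calnexin or its soluble relative calreticulin. Both lectins recruit the isomerase PDIA3, and UGGT1 puts glucose back on glycans of proteins that are not yet folded. Male germ cells add their own versions of these chaperones. In mouse, calmegin, CALR3 and PDILT are needed for the maturation of ADAM proteins of the sperm surface, ADAM3 above all, and males that lack any of them make sperm that do not pass normally into the oviduct or bind the zona pellucida.

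The promoters of 5 members are shown because an ER stress element stands in 3 of them, which were also among the 4 members of lowest p below. None of these 4 passed q under 0.05, and whether the element bears on their levels was not tested. The element is the sequence bound by ATF6 with NF-Y when unfolded proteins build up, and was searched on both strands as CCAAT, 9 bases of any kind and CCACG. RefSeq promoter windows, 250 bases before to 50 after a gene start on GRCm38.p6, were found for 9 of the 10 members. Clgn, which was also among the 4 members of lowest p, had no entry. An exact match was found in Calr, Canx and Pdia6, against 39 of all 32851 windows (0.119%). Each sequence runs 5′ to 3′ on the gene's strand and ends at the base before the first start annotated in RefSeq or GENCODE, with the element in capitals. The first was from chr8:84846935-84847181 (minus strand), where the element reads on the other strand, the second from chr11:50325674-50325923 (minus) and the third from chr12:17266339-17266544 (plus). No match was found in the other members with a window, the broadly used Uggt1, Pdia3, Pdia4 and P4hb and the germ cell genes Calr3 and Pdilt. Of these, Calr3, from chr8:72443871-72444028 (minus), and Pdilt, from chr7:119523490-119523732 (minus), are given for comparison.
Calr: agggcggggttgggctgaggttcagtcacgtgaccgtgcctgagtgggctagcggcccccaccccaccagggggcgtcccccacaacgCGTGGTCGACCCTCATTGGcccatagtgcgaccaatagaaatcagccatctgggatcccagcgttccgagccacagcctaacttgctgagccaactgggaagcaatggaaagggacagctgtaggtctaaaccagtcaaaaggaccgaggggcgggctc
Canx: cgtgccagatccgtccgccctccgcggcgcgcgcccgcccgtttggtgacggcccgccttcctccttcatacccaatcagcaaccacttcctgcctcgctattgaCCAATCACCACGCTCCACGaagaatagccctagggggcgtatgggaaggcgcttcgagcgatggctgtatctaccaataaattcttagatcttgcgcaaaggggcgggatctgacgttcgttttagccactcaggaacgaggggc
Pdia6: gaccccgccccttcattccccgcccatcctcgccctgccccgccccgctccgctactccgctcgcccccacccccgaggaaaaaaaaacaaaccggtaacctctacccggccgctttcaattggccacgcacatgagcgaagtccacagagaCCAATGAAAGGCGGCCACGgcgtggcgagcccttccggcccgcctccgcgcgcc
Calr3: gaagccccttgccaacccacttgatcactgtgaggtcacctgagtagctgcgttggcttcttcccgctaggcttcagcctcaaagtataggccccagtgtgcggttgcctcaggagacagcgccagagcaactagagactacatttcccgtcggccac
Pdilt: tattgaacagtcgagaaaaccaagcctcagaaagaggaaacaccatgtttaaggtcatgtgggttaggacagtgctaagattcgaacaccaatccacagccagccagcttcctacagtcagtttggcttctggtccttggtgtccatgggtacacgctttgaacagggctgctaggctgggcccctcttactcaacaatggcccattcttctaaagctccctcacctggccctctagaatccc
Between the element and the first annotated start lay 140 bases in Calr, 126 bases in Canx and 35 bases in Pdia6. A match describes these letters only and does not show that a factor binds there.

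Levels of the members spanned a wide range, with a 98.8-fold difference between highest and lowest in PTBP1_KO and a 131-fold difference in WT. Calr and Clgn were far above the rest and together made up 69.5% of the summed FPKM of the members in PTBP1_KO and 69.9% in WT. Below them came Pdia3, Canx and Pdilt, in this order in both groups. Calr3 stood above Pdia6 in PTBP1_KO and below it in WT, the only place where the order changed. P4hb, Pdia4 and Uggt1 were lowest in both groups. Without a spread between libraries, it cannot be said which neighbours in this order differ.

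**Figure D1:**
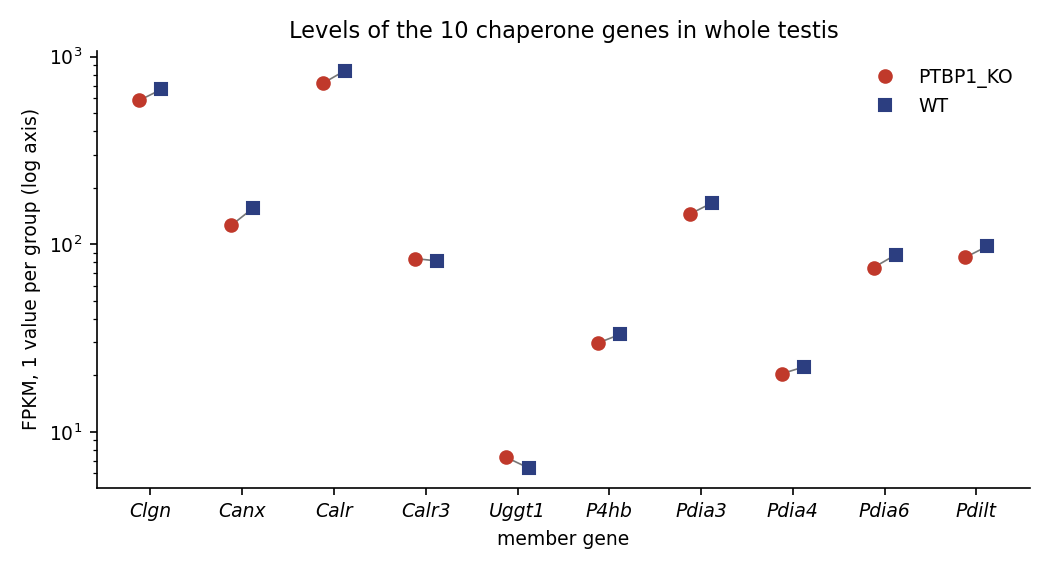
FPKM of each of the 10 members in PTBP1_KO (red circles) and WT (blue squares) on a log axis, 1 deposited value per group. Calr and Clgn lie highest, Uggt1 lowest, and 8 of the 10 members lie lower in PTBP1_KO.

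The comparison of PTBP1_KO with WT asks whether these transcripts differ in abundance when floxed mice also carry Amh-Cre. None of the 10 members passed q under 0.05 in the authors' deposited table, in either direction, where 1.16% of all tested genes passed, 0.703% as lower and 0.458% as higher. The level was lower in PTBP1_KO for 8 members and higher for Calr3 and Uggt1, and 49.1% of all tested genes were lower. At an unadjusted p under 0.05, 4 members were lower and 0 were higher in the authors' deposited table, where 4.59% of all tested genes were lower and 4.38% higher at that mark, 8.98% together. The median difference of log2(FPKM + 1), PTBP1_KO minus WT, was -0.19 over the 10 members and 0.004 over all tested genes. The members are highly expressed, and among the 8825 tested genes with at least the FPKM of Uggt1, the lowest member, 58.6% were lower, 5.62% were lower at an unadjusted p under 0.05, and the median difference was -0.030. The count of members past the threshold was also 0 when the deposited p was adjusted over genes with an FPKM of at least 1, where 1.61% of genes passed. A two-sided normal p computed from the deposited statistic gave 0 members past an adjusted 0.05 and 0 at an unadjusted 0.05, where 0.0863% and 1.34% of all genes passed these marks. An error for each difference was taken as the deposited log2 fold change divided by the deposited test statistic, on the premise that the statistic is a log ratio over its standard error. These standard errors were 0.17 to 0.31, and the 95% interval of each of the 10 members included 0. The interval and the normal p come from the same statistic, so this restates the result of the normal p. The 1.34% of genes at an unadjusted 0.05 under the normal p is a smaller share than that mark would give with no differences. The implied errors may therefore be too large and the intervals too wide. The deposited p differed from the normal p, for Pdia6 0.0282 against 0.226.

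**Figure D2:**
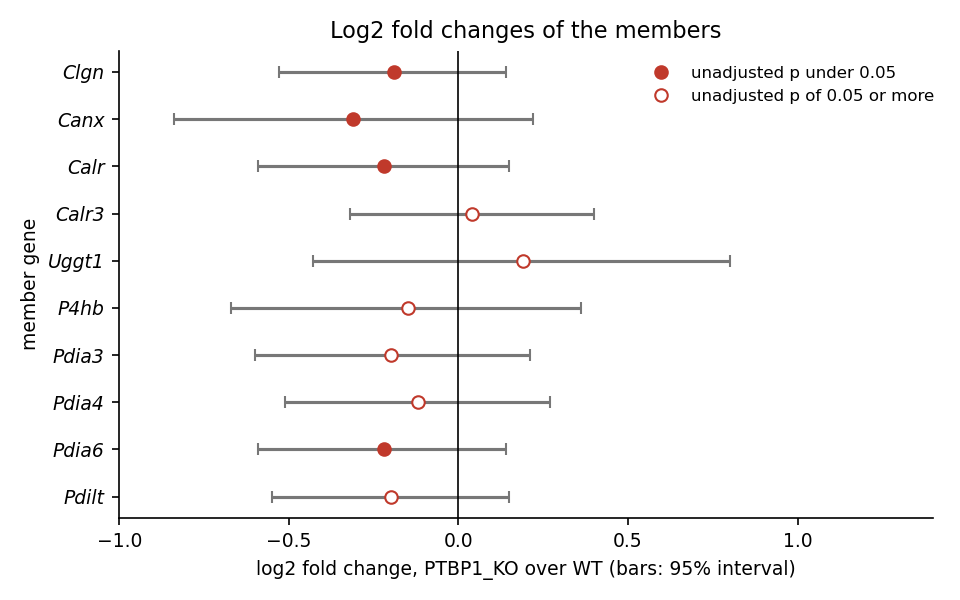
Deposited log2 fold change of each member, PTBP1_KO over WT, with the 95% interval implied by the deposited statistic as bars and filled points for an unadjusted p under 0.05. The 8 members at negative values lie between -0.31 and -0.12, and every interval crosses 0, though the intervals may be too wide.

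Among the lectins, calnexin showed the largest difference of all members. Canx (ENSMUSG00000020368.15, chromosome 11, 50293961 to 50325673, minus strand, 15 exons), the membrane lectin of most cell types, stood at 126 FPKM in PTBP1_KO and 156 FPKM in WT. Its log2 fold change was -0.31 with an implied standard error of 0.27 and a 95% interval of -0.84 to 0.22, at p = 0.0437 and q = 0.526 in the authors' deposited table. The level was lower in PTBP1_KO, and the difference was little larger than its implied error.

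Clgn (ENSMUSG00000002190.13, chromosome 8, 83389867 to 83428552, plus strand, 15 exons), the calnexin relative of meiotic and post-meiotic germ cells, stood at 585 FPKM in PTBP1_KO and 669 FPKM in WT. It ranked 139th of all tested genes by FPKM in PTBP1_KO and 116th in WT. The log2 fold change was -0.19 ± 0.17 (implied standard error), at p = 0.0488 and q = 0.551 in the authors' deposited table. Calmegin and calnexin transcripts matched each other over 1249 bases of the longest coding Clgn transcript at 69.4% identity, far from near-identical copies. Clgn stood at 4.65 times the level of Canx in PTBP1_KO and at 4.29 times in WT, a ratio within each group that does not depend on the scaling between groups.

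Calr (ENSMUSG00000003814.8, chromosome 8, 84841850 to 84846934, minus strand, 9 exons), the soluble lectin that also buffers ER calcium, was the most abundant member, at 721 FPKM in PTBP1_KO and 842 FPKM in WT. Its log2 fold change was -0.22 ± 0.19 (implied standard error), at p = 0.0378 and q = 0.489 in the authors' deposited table. Calr3 (ENSMUSG00000019732.14, chromosome 8, 72424176 to 72443870, minus strand, 9 exons), its testis relative, stood at 83.9 FPKM in PTBP1_KO and 81.5 FPKM in WT. Calr3 was the member closest to no difference, with a log2 fold change of 0.04 ± 0.18 (implied standard error) at q = 0.999 in the authors' deposited table. The ratio of Calr3 to Calr was 0.116 in PTBP1_KO and 0.0968 in WT, 1.20 times as high in PTBP1_KO, and this ratio was not tested. A further calreticulin gene outside the set, Calr4, which was named after its value was seen, stood at 10.1 FPKM in PTBP1_KO and 9.91 FPKM in WT.

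Uggt1 (ENSMUSG00000037470.14, chromosome 1, 36140027 to 36244720, minus strand, 41 exons), the glucosyltransferase that returns unfolded glycoproteins to the lectins, was the lowest member and the one with the highest ratio. It stood at 7.30 FPKM in PTBP1_KO and 6.42 FPKM in WT, a log2 fold change of 0.19 with a 95% interval of -0.43 to 0.80 and q = 0.933 in the authors' deposited table. Its relative Uggt2 was the more abundant of the pair, at 14.6 FPKM in PTBP1_KO and 14.1 FPKM in WT.

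The disulfide isomerases all had lower values in PTBP1_KO. Pdia3 (ENSMUSG00000027248.13, chromosome 2, 121413775 to 121438687, plus strand, 13 exons), the partner of both lectins, was the most abundant of them, at 145 FPKM in PTBP1_KO and 166 FPKM in WT (log2 fold change -0.20 ± 0.21 implied standard error, p = 0.0969 and q = 0.696 in the authors' deposited table). Pdia3 amounted to 0.171 of the summed FPKM of Canx and Calr in PTBP1_KO and to 0.166 in WT.

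Pdia6 (ENSMUSG00000020571.12, chromosome 12, 17266545 to 17284770, plus strand, 13 exons), an isomerase that works with the ER chaperone BiP, had the lowest p of all members. It stood at 75.1 FPKM in PTBP1_KO and 87.8 FPKM in WT, a log2 fold change of -0.22 ± 0.19 (implied standard error) at p = 0.0282 and q = 0.434 in the authors' deposited table. P4hb (ENSMUSG00000025130.11, chromosome 11, 120560298 to 120573253, minus strand, 11 exons), the founding disulfide isomerase and a subunit of prolyl 4-hydroxylase, stood at 29.8 FPKM in PTBP1_KO and 33.1 FPKM in WT. Pdia4 (ENSMUSG00000025823.9, chromosome 6, 47796141 to 47813430, minus strand, 10 exons), which carries an additional thioredoxin-like domain, stood at 20.4 FPKM in PTBP1_KO and 22.2 FPKM in WT. With q = 0.963 for P4hb and q = 0.944 for Pdia4 in the authors' deposited table, these were the isomerases with the smallest differences, at log2 fold changes of -0.15 and -0.12.

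Pdilt (ENSMUSG00000030968.3, chromosome 7, 119486587 to 119523489, minus strand, 12 exons), the testis isomerase-like protein that lacks the usual paired active-site cysteines and acts with calmegin on ADAM3 in mouse, stood at 85.1 FPKM in PTBP1_KO and 97.6 FPKM in WT. Its log2 fold change was -0.20 ± 0.18 (implied standard error), at p = 0.0551 and q = 0.574 in the authors' deposited table. Pdilt stood at 2.85 times the level of P4hb in PTBP1_KO and at 2.94 times in WT.

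Members of germ cells and members used in most cell types took much the same shares of the total in both groups. The sum over Calr3, Clgn and Pdilt was 753 FPKM in PTBP1_KO and 848 FPKM in WT, or 40.1% and 39.2% of the sum over the 10 members in the same groups. The sum over the 7 broadly used members was 1125 FPKM in PTBP1_KO and 1313 FPKM in WT. These sums rested largely on Clgn and on Calr. Without Clgn, the germ cell members summed to 169 FPKM in PTBP1_KO and 179 FPKM in WT, a ratio of 0.944. Without Calr, the broadly used members summed to 403 FPKM in PTBP1_KO and 472 FPKM in WT, a ratio of 0.855. In whole testis, fewer cells of a type and less RNA per cell cannot be told apart.

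The values rested on many fragments. Fragments were estimated from the fragment steps, on the premise given with them, and the longest coding transcript of each gene. Pdia4 had the fewest, about 8892 fragments over the PTBP1_KO group and 10757 over the WT group. Clgn had the most, about 433246 and 551138 in the same groups. Counting error of the ratio was then at most 1.43% for any member, and it does not include the spread between libraries. No transcript of another gene matched a member at 95% identity over 80% of its length. Exons of 4 members shared bases with another gene, and the only such gene with more than 1 FPKM was Catsper2, on the strand opposite Pdia3 with 18 shared bases.

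Summed marker levels of testis cell types lay on both sides of the WT level, as the plot of summed marker levels shows. For the counts below, 49.1% of all tested genes were lower in PTBP1_KO, and 58.6% of those at or above the FPKM of Uggt1. Of 16 spermatocyte markers, 14 were lower. Their sum was 4081 FPKM in PTBP1_KO and 4587 FPKM in WT, a ratio of 0.890. That ratio was 0.869 for the 10 members, 0.888 for the 3 germ cell members and 0.856 for the 7 broadly used members. Without the most abundant gene it was 0.910 for spermatocyte markers and 0.877 for the members as a whole. Round spermatid markers summed to 2899 FPKM in PTBP1_KO and 3059 FPKM in WT, a ratio of 0.948 (12 of 14 lower). Elongating spermatid markers summed to 57999 FPKM in PTBP1_KO and 54764 FPKM in WT, a ratio of 1.06 (3 of 12 tested lower). This sum is without Prm2 and Odf2, which had no test result and are listed at 0 in both groups. Such a 0 does not show that a gene is absent. No gene of another marker list was at 0 in both groups. Spermatogonial markers summed to 1296 FPKM in PTBP1_KO and 1372 FPKM in WT, although 7 of 10 tested were higher, since Dmrtb1 made up most of the sum at 1191 FPKM in PTBP1_KO and 1284 FPKM in WT. The other 9 summed to 104 FPKM in PTBP1_KO and 88.5 FPKM in WT. The most abundant spermatocyte marker, the lactate dehydrogenase Ldhc, was at 2030.3 FPKM in PTBP1_KO and 2333 FPKM in WT (q = 0.485 in the authors' deposited table).

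Among somatic cells, the sums for Sertoli and Leydig cells rested largely on 1 gene each. Sertoli markers summed to 1732 FPKM in PTBP1_KO and 1363 FPKM in WT (18 of 20 higher), and to 534 and 509 FPKM in the same groups without Clu. Leydig markers summed to 1473 FPKM in PTBP1_KO and 1204 FPKM in WT (6 of 11 higher), and without Insl3 to 424 FPKM in PTBP1_KO and 454 FPKM in WT, lower in PTBP1_KO. Leukocyte markers summed to 78.4 FPKM in PTBP1_KO and 58.0 FPKM in WT (11 of 12 higher), and stromal markers to 239.7 and 191 FPKM in the same groups (9 of 9 higher). Myoid markers summed to 213 FPKM in PTBP1_KO and 188 FPKM in WT, and endothelial markers to 11.8 and 10.1 FPKM in the same groups. The Sertoli cell secretory gene Clu rose to 1199 FPKM in PTBP1_KO, against 854 FPKM in WT, and the Leydig cell hormone gene Insl3 to 1049 FPKM in PTBP1_KO, against 749.6 FPKM in WT (both q = 0.00848 in the authors' deposited table, though neither was past the threshold under the two-sided normal p). The part of these shifts in the lower values of the chaperone genes was not tested.

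**Figure D3:**
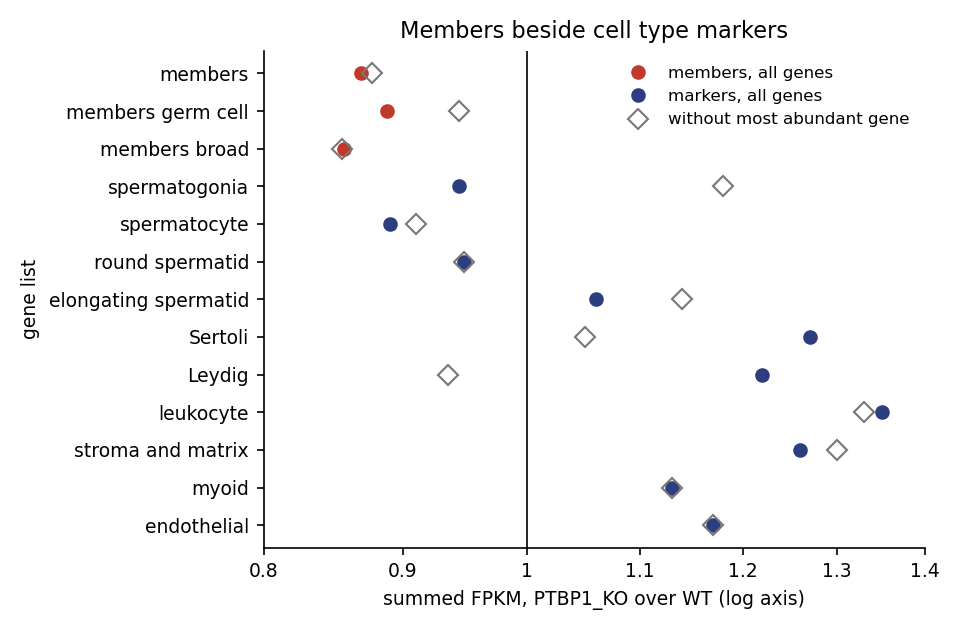
Summed FPKM in PTBP1_KO divided by that in WT, on a log axis, for the members (red) and for marker lists of testis cell types (blue), with open diamonds for the sum without the list's most abundant gene. The members lie at 0.869, spermatocyte markers at 0.890, round spermatid markers at 0.948 and elongating spermatid markers at 1.06. Without the most abundant gene, Sertoli markers lie at 1.05 in place of 1.27 and Leydig markers at 0.935 in place of 1.22.

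Other genes of the folding pathway were taken from 8 lists. Of all tested genes, 49.1% were lower in PTBP1_KO. At an unadjusted p under 0.05, 4.59% of all tested genes were lower and 4.38% higher. Only the list of sperm surface proteins held a gene past q under 0.05 in the authors' deposited table. Among the 15 tested of 18 other isomerase family genes, 0 passed that threshold, 8 were higher and 7 lower, and the median difference of log2(FPKM + 1) was 0.01. Among those with an FPKM of at least 1, Pdia5 had the largest difference upwards, at 7.64 FPKM in PTBP1_KO and 6.25 FPKM in WT (p = 0.0346 and q = 0.471 in the authors' deposited table). Dnajc10, an ER reductase, had the largest difference in the other direction, at 20.8 FPKM in PTBP1_KO and 25.3 FPKM in WT. Erp29 was the most abundant, at 86.7 FPKM in PTBP1_KO and 90.2 FPKM in WT.

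The 12 tested oxidases and P4hb partners included 6 higher and 6 lower genes, with a median difference of log2(FPKM + 1) of -0.02 and 0 at an unadjusted p under 0.05. Prdx4, a peroxidase that recharges the isomerases, was the most abundant, at 123 FPKM in PTBP1_KO and 141 FPKM in WT (q = 0.635 in the authors' deposited table). Vkorc1 lay highest against WT, at 10.7 FPKM in PTBP1_KO and 8.19 FPKM in WT, with an implied standard error of 1.59 on the log2 scale, and Mttp, which forms a lipid transfer complex with P4hb, lowest, at 7.39 and 8.67 FPKM in the same groups.

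Enzymes and lectins that trim and read N-glycans, not all of them in the calnexin cycle, were 7 higher and 13 lower of 20 tested. Of these genes 0 were at an unadjusted p under 0.05, and the median difference of log2(FPKM + 1) was -0.03. Glucosidase II, which makes the monoglucosylated glycan, was at 16.7 FPKM in PTBP1_KO and 15.6 FPKM in WT for its catalytic subunit Ganab. Its other subunit, Prkcsh, was at 16.4 FPKM in PTBP1_KO and 15.9 FPKM in WT. The mannosidase Man1a2 had the largest difference downwards, at 42.3 FPKM in PTBP1_KO and 52.6 FPKM in WT, and Ngly1, which removes N-glycans, was the most abundant at 77.6 and 85.7 FPKM in the same groups. The oligosaccharyltransferase subunits that attach the glycan gave 5 higher and 7 lower of 12, with a median of -0.04. Dad1 was the most abundant of them, at 145 FPKM in PTBP1_KO and 138 FPKM in WT, while Ost4 was at 74.4 FPKM in PTBP1_KO and 68.8 FPKM in WT and Tmem258 at 77.9 and 84.7 FPKM in the same groups.

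Among 25 other chaperones of the ER lumen, 16 were lower and 9 higher, with a median difference of log2(FPKM + 1) of -0.05. At an unadjusted p under 0.05, 2 were lower and 1 higher. The most abundant was Hsp90b1 (GRP94), at 360.4 FPKM in PTBP1_KO and 423 FPKM in WT, a log2 fold change of -0.23 ± 0.20 (implied standard error) at q = 0.353 in the authors' deposited table. On the log2(FPKM + 1) scale, Creld2, which interacts with disulfide isomerases, had the largest difference downwards, at 80.6 FPKM in PTBP1_KO and 95.9 FPKM in WT (q = 0.350 in the authors' deposited table). On the same scale Rcn3, a calcium-binding protein, had the largest upwards, with a PTBP1_KO level 1.29 times the 4.63 FPKM of WT. As plain ratios, the extremes of the list were 0.826 and 1.32, in Fkbp14 and Fkbp10.

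In the list of unfolded protein response genes, the median was above 0 and between the quartiles of all tested genes, -0.09 and 0.10. Chaperones such as Hsp90b1 and Creld2 stand in the list of ER lumen chaperones and not in this list. Of 22 tested genes, 14 were higher and 8 lower, with a median difference of log2(FPKM + 1) of 0.08, and 2 were higher and 0 lower at an unadjusted p under 0.05. Herpud1, a target of this response, was at 95.7 FPKM in PTBP1_KO and 82.1 FPKM in WT (q = 0.546 in the authors' deposited table). The spermatid transcription factor Creb3l4 was the most abundant, at 179.9 FPKM in PTBP1_KO and 176 FPKM in WT. The phosphatase subunit Ppp1r15a was at 2.50 FPKM in PTBP1_KO and 3.72 FPKM in WT, with an implied standard error of 3.53 on the log2 scale. In the list of retention and transport genes, 6 were higher and 9 lower of 15, with a median of -0.05 and 1, Sec61g, lower at an unadjusted p under 0.05. The translocon subunit Sec61g was at 66.6 FPKM in PTBP1_KO and 84.7 FPKM in WT (q = 0.295 in the authors' deposited table), the KDEL receptor Kdelr1 at 1.13 times and the cargo receptor Tmed10 at 0.962 times the WT level.

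**Figure D4:**
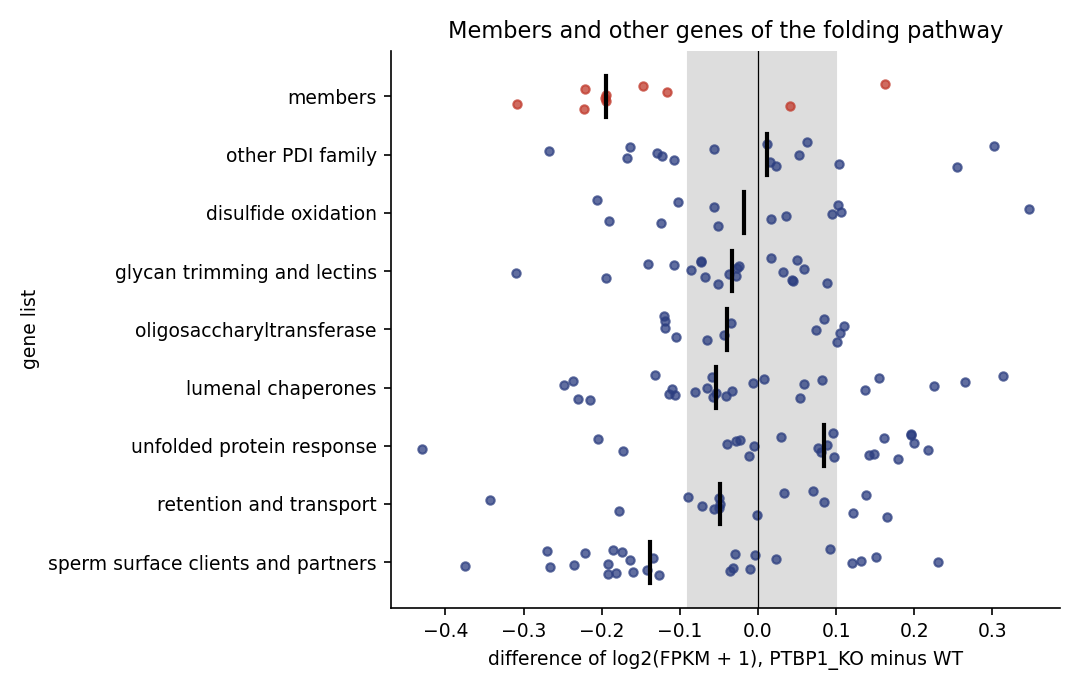
Difference of log2(FPKM + 1), PTBP1_KO minus WT, for the members (red) and the tested genes of 8 pathway lists (blue), with black bars at each list's median and a grey band between the quartiles of all tested genes, from -0.09 to 0.10. The medians are -0.19 for the members, -0.14 for sperm surface proteins and 0.08 for the unfolded protein response.

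The list of sperm surface clients and partners holds ADAM genes and other genes, not all of them known clients of the germ cell chaperones or genes of the same sterility. Among the 8 lists, it had the median nearest to that of the members. Of 26 tested genes 20 were lower and 6 higher, with a median difference of log2(FPKM + 1) of -0.14. At an unadjusted p under 0.05, 5 were lower and 1 higher. Of all tested genes at or above the FPKM of Uggt1, 58.6% were lower, and 5.62% were lower at that mark. Adam26a, a testis ADAM, fell to 16.0 FPKM in PTBP1_KO, against 21.0 FPKM in WT (log2 fold change -0.40 ± 0.20 implied standard error, q = 0.0474 in the authors' deposited table), and was the 1 gene of the list past the threshold. Under the two-sided normal p it did not pass. Adam3, the chief client, was at 353 FPKM in PTBP1_KO and 394 FPKM in WT (q = 0.741 in the authors' deposited table). Its partner Adam2 was at 94.0 FPKM in PTBP1_KO and 107 FPKM in WT. Adam1a was at 48.5 FPKM in PTBP1_KO and 53.1 FPKM in WT. Adam32 was the most abundant, at 846 FPKM in PTBP1_KO and 996 FPKM in WT. Loss of Ace in mouse gives sperm with the same defect as loss of calmegin. Ace was highest against WT, at 230.4 FPKM in PTBP1_KO and 196 FPKM in WT (q = 0.379 in the authors' deposited table). These are transcript levels, and protein maturation was not measured.

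The ER stress element shown above also stood in promoter windows of genes outside the set, and 27 genes with it were tested. Of these 19 were lower and 8 higher in PTBP1_KO, where 49.1% of all tested genes and 58.6% of those at or above the FPKM of Uggt1 were lower. Of the 27 genes 0 passed q under 0.05 in the authors' deposited table, and the median difference of log2(FPKM + 1) was -0.06. At an unadjusted p under 0.05, 5 were lower and 0 higher, namely Calr, Canx, Pdia6, Creld2 and Hsp90b1. Under the two-sided normal p, 0 of these were at that mark. Hspa5 (BiP), the chief ER Hsp70, also held the element and was at 272 FPKM in PTBP1_KO and 316 FPKM in WT (q = 0.837 in the authors' deposited table). Syvn1 and Derl3, both of ER-associated degradation, held it too and were higher, at 1.16 and 1.13 times the WT level. Without the 3 members, whose low p led to the element being shown, 16 of 24 were lower, and the median was -0.06. At an unadjusted p under 0.05, 2 of these 24 were lower. That share was 4.59% over all tested genes and 5.62% over those at or above the FPKM of Uggt1. This comparison was made after the members' values were seen.

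**Figure D5:**
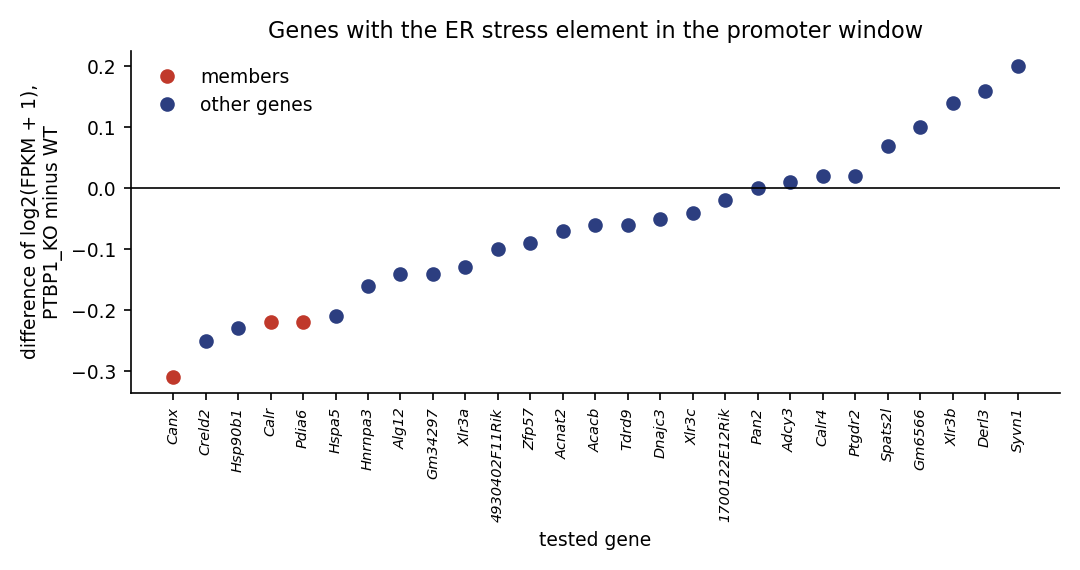
Difference of log2(FPKM + 1), PTBP1_KO minus WT, for the 27 tested genes whose promoter window holds the ER stress element, in order of the difference, with members in red. The values run from -0.31 for Canx to 0.20 for Syvn1, and 19 of the 27 lie below 0.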

How the data were processed

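Polyadenylated RNA of whole testes was sequenced in 3 PTBP1_KO and 3 WT libraries. Per the submitters' processing notes, the tools were STAR 2.6.1d, Trimmomatic 0.38, bcl2fastq 2.20, Cuffdiff and Cufflinks, with build mm10. Which annotation was used, how libraries were scaled and whether counting used strand is not given in the sources used here. Deposited by the authors was Cuffdiff output in which each gene has 1 FPKM for each group. Its other columns are, per the file headers, a log2 fold change (PTBP1_KO over WT), a signed statistic used here as a score, a p-value, and a q-value.

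Calls were Cuffdiff's, at q under 0.05 among tested genes. Computed here, with Python 3.11.15 and pandas 2.3.3, were differences of log2(FPKM + 1), which understate changes of low genes, list counts and medians, FPKM ratios, the error implied by the statistic, and fragment steps from genes with 1 exon and 1 transcript of 1500 to 6000 bases. Gene positions come from GENCODE M21 on the same build, which held 98.6% of the deposited identifiers. Similar transcripts were sought with BLAST 2.17.0 and promoter windows taken from RefSeq. Simulated data served to test how adjusted p and fragment steps are computed. The members and lists were chosen with earlier results of these data known. Named genes were all members, and from each list those past the threshold, those with the largest rise and fall at an FPKM of at least 1, and the most abundant, and the most abundant gene of cell type lists; others were named after their values were seen, namely Calr4, Uggt2, Prkcsh, Adam1a, Adam2, Adam3, Hspa5, Syvn1, Derl3, Catsper2, Fkbp10, Fkbp14 and Ptbp1. Izumo1 and Spaca1 stand in 2 lists. The symbols Ero1a, Ero1b and Sep15 matched no row, and Ero1l, Ero1lb and Selenof stand for them.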

Additional observations from a re-analysis of the deposited data

How the results depend on the processing

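No member passed the threshold under either other way of obtaining the adjusted p. A two-sided normal p from the deposited statistic left 19 genes in all past the threshold (0.0863%), 0 members at an unadjusted p under 0.05 and a smallest unadjusted p of 0.226 among members, so the unadjusted calls of Clgn, Canx, Calr and Pdia6 hold for the deposited p only; the cause was not tested. The normal p was a strict mark, under 0.05 unadjusted in 1.34% of all genes, a smaller share than with no differences. With the normal p, the sperm surface list had 0 genes past the threshold in place of 1. Each of the 8 pathway lists had 0 genes at an unadjusted normal p under 0.05, so their unadjusted calls also hold for the deposited p only. Adjusting the deposited p over genes with an FPKM of at least 1 changed no list's count. The members' median difference was -0.20 to -0.15 over 7 alternatives in pseudocount, filter, scaling and members left out, the last 2 chosen after the data were seen. Of 47 alternative medians over members and lists, 1 changed sign: that of the other isomerase family genes was -0.02 without those below an FPKM of 1, in place of 0.01. Upper quartile scaling shifted all differences by 0.012 on the log2 scale and turned no member. Of the ratios, Pdilt over all 4 other isomerases differed by -0.00 between groups on the log2 scale, against -0.05 over P4hb alone. Leaving out each list's most abundant gene, chosen after the data were seen, turned the ratio of summed markers for Leydig cells and spermatogonia, as given in the report. No paired analysis was possible because the table holds 1 value per group, and for the same reason no replicate could be left out. The table leaves the spread between libraries unmeasured.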
